A study of Mus musculus with 18 samples.

Results

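The change of cultured mouse aorta between 2 and 4 h without hormone was described from 6 of 18 array samples, the 3 vehicle pools of 4 h against the 3 vehicle pools of 2 h. All 18 samples came from male wild type C57Bl/6 mice that had carried a subcutaneous spironolactone pellet (20 mg/kg/day for 5 days). Spironolactone blocks the mineralocorticoid receptor (MR), so the vehicle aortas also came from MR-blocked animals. The aortas were excised and kept in DMEM, a standard culture medium, with vehicle or with 100 nM aldosterone, the natural MR agonist, for 2, 4 or 8 h. Each sample pooled 3 aortas and each of the 6 groups held 3 pools, labelled as biological replicates. Besides the 6 vehicle samples, those of aldosterone at 2 and 4 h and of vehicle at 8 h were used for comparison. Levels before culture were not analysed here, so 2 h was the earliest state measured.

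An aorta moved into a dish loses its blood flow, pressure, nerves and hormones, and its cells receive new medium. Within minutes to hours such tissue is known to switch on immediate early genes, such as Fos and Egr1, whose messages are made without new protein and decay fast. Later programs are known to follow, among them inflammatory chemokines, the hypoxia response run by HIF-1, and the amino acid response, in which the factor ATF4 raises genes for amino acid supply and protein synthesis.

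The deposited values were log2 expression levels per probe set, a probe set being the group of probes on the array that reports 1 transcript. Probe sets were kept where the level was above 4 in at least 3 of the 6 vehicle samples, which left 11682 of 22690, and 6803 genes, each represented by its brightest probe set. Changes are log2 differences of 4 h minus 2 h, with the SE of limma's fit, and a gene is said to have risen or fallen where its adjusted p was under 0.05. From 2 to 4 h, 2759 of the 6803 genes (40.6%) passed, 998 higher (14.7%) and 1761 lower (25.9%). Among them, 359 rose (5.28%) and 542 fell (7.97%) by at least 1 on the log2 scale. The samples of 2 and 4 h did not overlap for 3018 genes (44.4%), 1018 higher (15%) and 2000 lower (29.4%). The median change of all genes was -0.13.

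Vehicle 2 h replicate 1 stood apart. Its median level was 4.42, whereas the other 17 samples lay between 4.01 and 4.10, and against the mean of its 2 group mates 616 genes were more than 1 higher in it and 234 more than 1 lower. Without it, 1 of the leave-one-out fits and singled out after seeing the data, 2764 genes passed (40.6%), 1393 higher (20.5%) and 1371 lower (20.2%), and the median change was -0.029. Of the calls with all samples, 942 of the 998 higher (13.8% of all genes) and 1256 of the 1761 lower ones (18.5%) were also made without it, and 0 turned to the opposite direction. The share of higher calls was 36.2% with all samples, 50.4% without replicate 1, 44.4% after quantile normalization, 46.3% after centring each sample on its median and 46.8% with array weights, and centring moved the median of all genes to -0.024. Without vehicle 2 h replicate 2 or 3 that share was 31% or 32.4%. Counts of risers against fallers over all genes therefore varied with the scaling, the weights and the samples used. The counts and median of each gene list below are given with and without replicate 1, to be read beside these shares and medians over all genes. In a bulk sample, fewer cells of a type and less RNA per cell cannot be told apart.

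**Figure D1:**
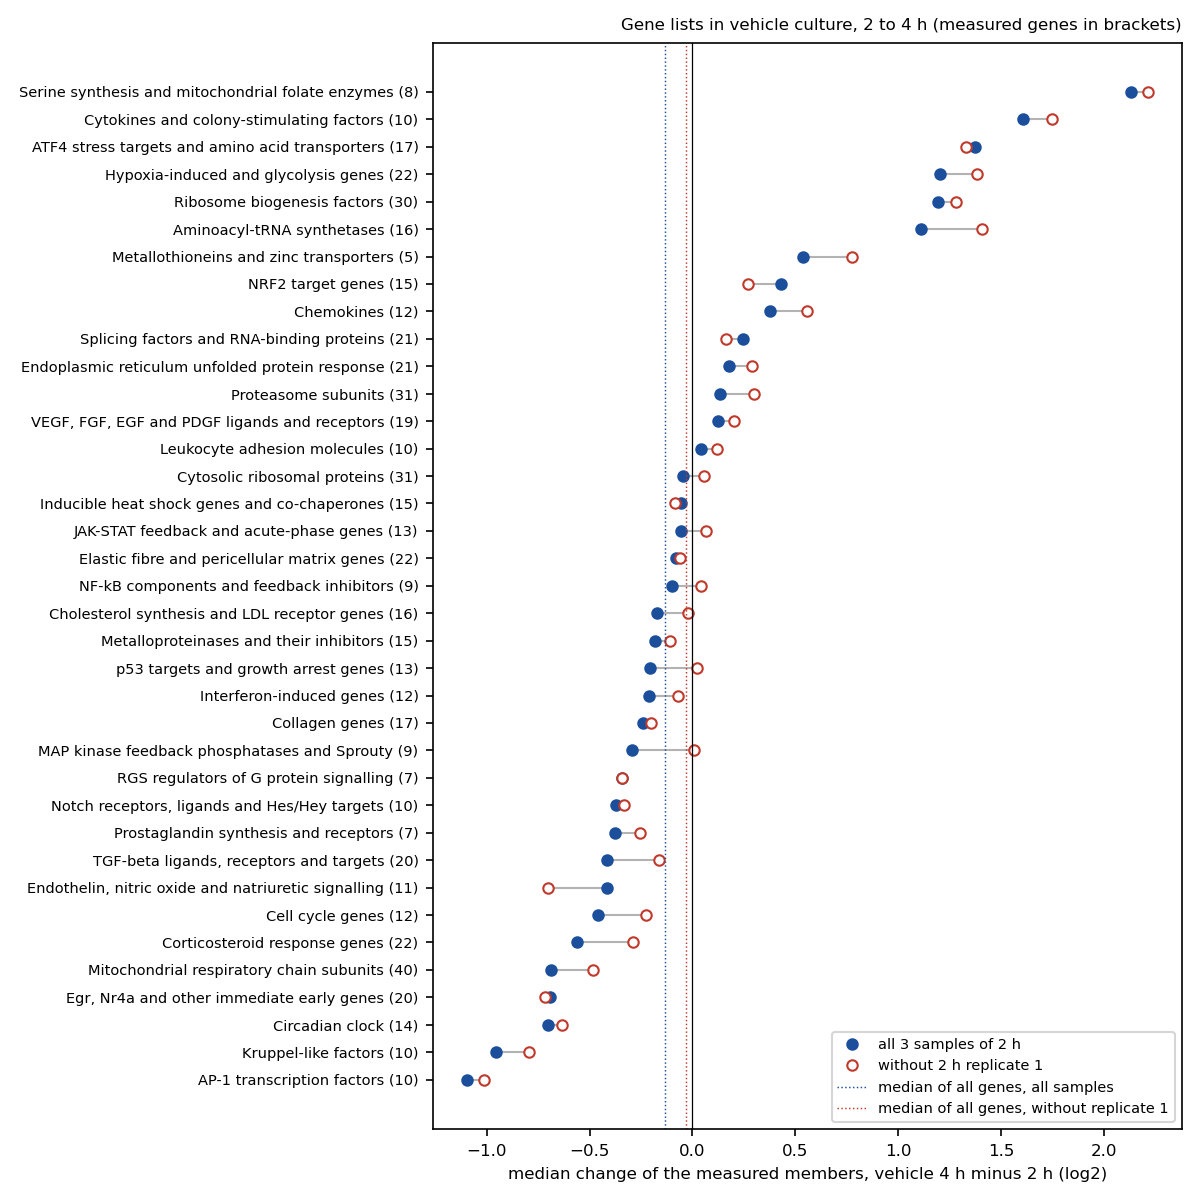
Median change from vehicle 2 h to 4 h (log2, horizontal axis) of the measured members of 37 gene lists (vertical axis, number of measured genes in brackets), with all 3 samples of 2 h (filled) and without replicate 1 (open). Dotted lines mark the median of all genes. Serine synthesis enzymes had the highest median at 2.13 and AP-1 transcription factors the lowest at -1.10, and for most lists the filled and open points lay close together.

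Genes of the amino acid response rose. Of 17 measured ATF4 targets and amino acid transporters, 14 rose and 1 fell, with a median of 1.37 (13 and 1, median 1.33, without replicate 1). Many targets of ATF4 are known to hold a composite C/EBP-ATF element, to which it binds. Chac1 had the largest fitted rise of the tested genes, and its promoter is shown for that reason, from RefSeq's GRCm38.p6 (chr2:119350992-119351291, plus strand), 250 bases before to 50 after the annotated start, with the match to the element TGATGCAA, searched on both strands, in capitals.
Chac1: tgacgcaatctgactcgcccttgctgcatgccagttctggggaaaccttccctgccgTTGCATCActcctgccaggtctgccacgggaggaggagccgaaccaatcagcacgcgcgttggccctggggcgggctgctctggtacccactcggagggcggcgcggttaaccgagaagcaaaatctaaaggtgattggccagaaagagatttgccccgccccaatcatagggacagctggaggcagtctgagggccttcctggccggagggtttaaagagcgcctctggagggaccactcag
Among the 32 genes of the ATF4, serine synthesis and tRNA synthetase lists that rose, 26 had a promoter in the RefSeq table and 8 of these (30.8%) held TGATGCAA, namely Aars, Chac1, Iars, Nupr1, Slc1a4, Tars, Vldlr and Yars. Over the 5516 tested genes with a promoter the share was 0.852%, and over all 32851 promoters of this length 0.895%. A match of letters is a description of the sequence and does not show that a factor was bound. The lists were made up of genes known for the amino acid response, so a high share could come from that choice alone. Members that did not rise were not counted apart, and whether the element went with the rise was not tested.

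Chac1, an enzyme that breaks down glutathione, read 2.90, 2.93 and 2.89 in the 3 samples of 2 h, all below the filter level of 4, and 8.83, 8.50 and 8.72 at 4 h. The groups lay far apart, and because the 2 h level is only a bound the rise is given as at least 25.7-fold. Trib3, a pseudokinase that restrains Akt signalling, read 4.90, 4.18 and 4.27 at 2 h and 8.91, 8.12 and 8.87 at 4 h. No sample of 2 h reached those of 4 h, and the difference was 4.18 ± 0.23 (SE), 18.2-fold (adjusted p = 1.52e-09). Slc7a5, the leucine transporter subunit LAT1, read 5.89, 6.28 and 5.86 and then 9.08, 8.75 and 8.96, again without overlap, a change of 2.92 ± 0.18 (SE) or 7.57-fold (adjusted p = 7.17e-09). Its partner chain Slc3a2 rose 2.59-fold, and Slc1a4, a carrier of alanine and serine, rose by 2.21, or 1.48 without replicate 1.

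Asns, which makes asparagine, rose from 7.41, 5.93 and 6.35 to 9.16, 8.72 and 9.10, a change of 2.43 ± 0.30 (SE) (2.85 without replicate 1, the highest of the 2 h samples). The groups did not overlap. Ddit3, which encodes the stress factor CHOP, read 8.48, 7.85 and 8.06 at 2 h and 9.23, 9.15 and 9.47 at 4 h, and rose 2.22-fold. Ddit4 and Sesn2, both inhibitors of the growth kinase complex mTORC1, rose 3.38-fold and 2.59-fold. Smaller rises were those of the glycine transporter Slc6a9 (0.75) and the stress protein Nupr1 (0.52). Atf4 itself changed little, by 0.49 with all samples (adjusted p = 0.0211), and by 0.26 without replicate 1, where it did not pass (adjusted p = 0.0933). Cebpg, a partner of ATF4, rose by 1.79, and by 0.91 without replicate 1. Against the direction of the list, Slc38a2, the sodium-coupled neutral amino acid transporter SNAT2, fell by 0.31 ± 0.10 (SE). The other 2 members did not pass.

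The enzymes that make serine and feed its carbon into mitochondrial folate rose furthest as a list, 6 of 8 measured, 0 fell, median 2.13 (6 and 0, median 2.21, without replicate 1). Phgdh, Psat1 and Psph carry out the consecutive steps from 3-phosphoglycerate to serine, and all 3 rose, by 1.90, 4.54 and 1.64. Psat1 read 3.74, 5.00 and 4.91 at 2 h and 9.36, 8.88 and 9.04 at 4 h. Replicate 1 was its lowest 2 h sample, the groups did not overlap, and the change was 4.54 ± 0.24 (SE), or 23.3-fold (adjusted p = 1.52e-09). Shmt2, the mitochondrial enzyme that splits serine into glycine and a folate-bound carbon, read 4.83, 4.64 and 5.38 and then 8.70, 8.34 and 8.73, without overlap. Its change was 3.64 ± 0.18 (SE), whereas other Shmt2 probe sets past the filter gave 0.53 and 2.17, so the size of its rise depended on the probe set. Mthfd2, the next mitochondrial folate enzyme, rose 8.34-fold, from 6.28, 5.72 and 5.43 to 8.88, 8.54 and 9.20, also without overlap. Aldh18a1, which begins proline synthesis, rose 5.17-fold, with 0.35 to 2.05 on its other 4 probe sets past the filter. The cytosolic counterparts did not pass, Shmt1 at 0.067 and Mthfd1 at 0.17, and the mean of Mthfd1's probe sets gave -0.50 (adjusted p = 0.035). The difference between the mitochondrial and cytosolic enzymes was not itself tested.

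Aminoacyl-tRNA synthetases, which load amino acids onto tRNAs, rose in 12 of 16 cases and fell in 0, with a median of 1.11 (12 and 0, median 1.41, without replicate 1). Among the 16, 1 was at or under 4 in every 2 h sample and so passed the filter only through its 4 h samples. Cars, for cysteine, went from 5.43, 4.14 and 4.27 to 7.78, 7.60 and 8.32. These groups were separate, and the change of 3.29 ± 0.28 (SE) was the largest of the list. Iars, for isoleucine, had the smallest p of the list (2.42 ± 0.12 (SE), adjusted p = 5.1e-10), with 7.51, 7.23 and 7.35 at 2 h and 9.84, 9.71 and 9.81 at 4 h. Tars, Nars and Gars, for threonine, asparagine and glycine, rose 3.85-fold, 3.34-fold and 3.39-fold. The synthetases for tryptophan, lysine and glutamine did not pass, nor did that for glutamate and proline, Eprs, at 0.39, which passed without replicate 1 at 0.64.

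Hypoxia-induced and glycolysis genes rose in 18 of 22 cases and fell in 1, with a median of 1.20 (19 and 0, median 1.38, without replicate 1). Many of these genes are known targets of HIF-1, which binds a short core in the hypoxia response element. Car9, a cell surface carbonic anhydrase and a classic HIF-1 target, is shown because the searched core TACGTG, read here on the opposite strand and in capitals, lies close to its start (RefSeq GRCm38.p6, chr4:43506776-43507075, plus strand, 250 bases before to 50 after the start).
Car9: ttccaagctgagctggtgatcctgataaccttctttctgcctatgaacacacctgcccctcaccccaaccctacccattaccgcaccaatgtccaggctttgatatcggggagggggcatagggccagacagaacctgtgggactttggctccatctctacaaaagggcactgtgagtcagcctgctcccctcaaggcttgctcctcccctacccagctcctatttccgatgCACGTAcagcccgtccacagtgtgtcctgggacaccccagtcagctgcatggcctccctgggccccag
Of the 18 genes that rose, 17 had a promoter and 5 of them (29.4%) held TACGTG on either strand, Car9, Hk1, P4ha1, P4ha2 and Pgam1. The share was 4.51% of tested genes and 3.23% of all promoters in the table. This list too was made up largely of known targets, and members that did not rise were not counted apart. Whether the core went with the rise was not tested.

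Car9 read 4.58, 4.00 and 4.37 at 2 h and 7.26, 7.44 and 8.24 at 4 h, without overlap, a rise of 3.33 ± 0.33 (SE) or 10-fold (adjusted p = 1.03e-06). Egln3, an oxygen-sensing prolyl hydroxylase that marks HIF for destruction, read 6.29, 4.85 and 5.30 and then 9.57, 9.53 and 9.97. Replicate 1 was the highest 2 h sample, all samples of 4 h were well above it, and the change of 4.21 ± 0.24 (SE) was 18.5-fold (4.61 without replicate 1). Slc2a1, the glucose transporter GLUT1, rose 3.43-fold, from 10.82, 10.45 and 10.95 to 12.33, 12.55 and 12.67. Among the glycolytic enzymes, hexokinases Hk2 and Hk1 rose 2.47-fold and 2.15-fold, the phosphofructokinases Pfkl and Pfkp 2.83-fold and 2.2-fold, Pgk1 2.83-fold, Pgam1 2.19-fold and Ldha, which makes lactate, 2.45-fold. Pkm, which makes pyruvate, stood at 0.37 and did not pass, though it did without replicate 1 at 0.62. Ndrg1, a stress-induced gene, rose 2.75-fold, Bnip3, a mitophagy receptor, 2.28-fold, and the collagen prolyl hydroxylases P4ha2 and P4ha1 2.59-fold and 1.87-fold. Hif1a, the oxygen-regulated subunit of HIF-1, rose by 0.94. Mxi1, a MYC antagonist, fell by 0.45 ± 0.17 (SE), and stood at -0.27 without replicate 1, where it did not pass.

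Vegfa, the main growth factor for endothelial cells, read 3.35, 8.22 and 8.30 at 2 h and 10.20, 10.31 and 10.22 at 4 h. Replicate 1 was far below its mates for this gene, 1 of 24 genes in which it lay more than 3 under their mean. The rise was 3.62 with all samples and 1.99 without replicate 1 (adjusted p = 0.00217 and 7.84e-09), so it was called either way while its size rested on that sample. Without replicate 2 or 3 of that time the rise was 4.42 or 4.46. Ak4, a mitochondrial adenylate kinase induced by hypoxia, read 3.88, 4.92 and 6.76 and then 8.52, 9.09 and 9.09, without overlap, and rose by 3.71, or by 3.06 without replicate 1 and 4.50 without replicate 3.

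**Figure D2:**
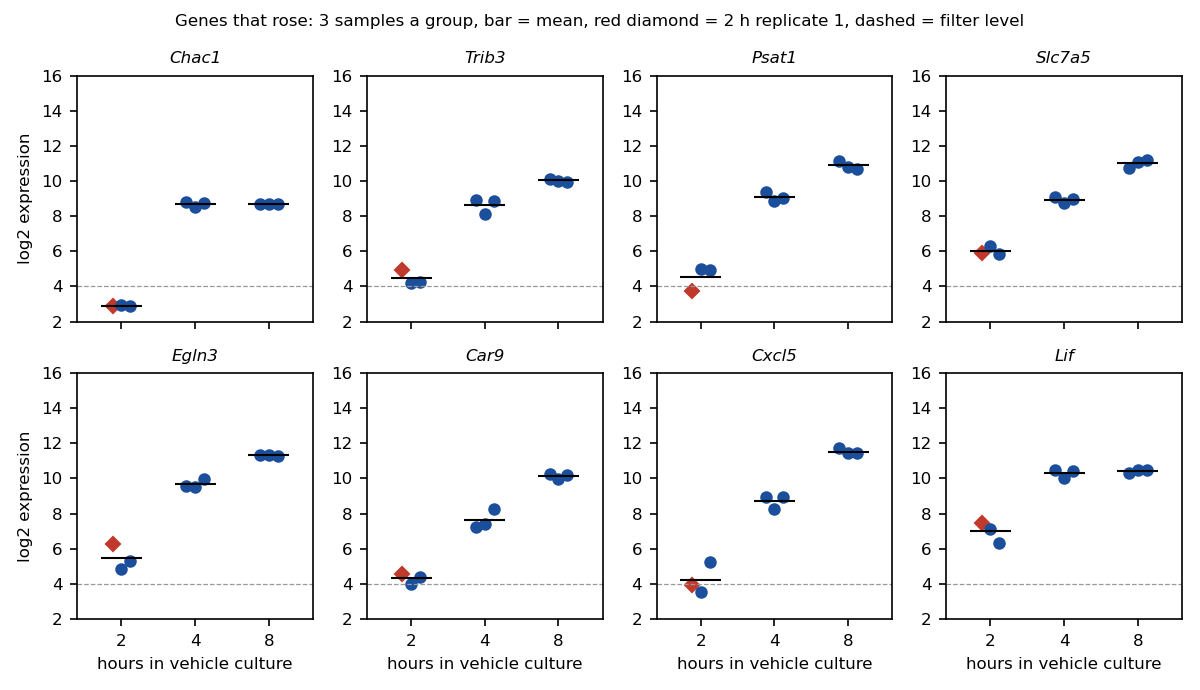
Log2 expression (vertical axis) of 8 genes in each vehicle sample at 2, 4 and 8 h (horizontal axis), 3 samples a time, with bars at the means, the red diamond for 2 h replicate 1 and the dashed line at the filter level of 4. In every panel the 3 samples of 4 h lie above the 3 of 2 h. Lif and Chac1 are about level from 4 to 8 h, whereas Cxcl5, Slc7a5 and Car9 go on upward.

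Ribosome biogenesis factors, which process ribosomal RNA in the nucleolus, rose in 26 of 30 cases and fell in 0, with a median of 1.19 (27 and 0, median 1.28, without replicate 1). Wdr75 and Wdr43, of the complex that first processes the small subunit's RNA, rose 3.37-fold and 4.27-fold, and Nop16, a nucleolar factor of the large subunit, 4.63-fold. The nucleolar GTPase Gnl3 (nucleostemin) rose 2.59-fold and Nop56, a core protein of box C/D small nucleolar ribonucleoproteins, 2.49-fold. Wdr75 had the smallest p, with 7.15, 6.92 and 6.86 at 2 h and 8.79, 8.70 and 8.70 at 4 h and no overlap (adjusted p = 6.18e-08). Among the 4 members that did not pass were Polr1a, the largest subunit of RNA polymerase I (0.47), and Bop1, a factor of the large subunit (0.61, or 0.97, a rise, without replicate 1). Rrp1b, a nucleolar protein, was among the 15 largest rises at 4.13, with 2 h samples at 3.21, 3.37 and 5.71 and 4 h samples at 8.17, 8.22 and 8.28. Its 2 h samples were widely spread (a change of 4.93 without replicate 3 of that time), and 2 further probe sets each gave 1.85.

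Few of the ribosome's own proteins passed. Of 31 measured cytosolic ribosomal proteins 3 rose and 1 fell, against 14.7% and 25.9% of all genes (median -0.044, or 5 up and 0 down with a median of 0.057 without replicate 1). Those that rose were Rps25 (1.05), Rpl12 (2.09) and Rps2 (0.69), and Rps4x fell by 0.23 ± 0.087 (SE). Without replicate 1 Rps4x did not pass (-0.14) and Rps2 rose by 0.24. Proteasome subunits rose in 7 of 31 cases and fell in 0 (median 0.14, or 13 up and 0 down with a median of 0.30 without replicate 1). Those with the smallest p were the regulatory subunits Psmc6 (0.53), Psmd11 (0.55) and Psmd12 (0.54). Of 21 splicing factors and RNA-binding proteins 8 rose and 2 fell (median 0.24, or 10 up and 3 down with a median of 0.16 without replicate 1). The fallers were Clk1, a kinase of splicing factors (-1.47), and Cirbp, the cold-inducible RNA-binding protein (-0.75), whereas U2af1, which recognises the end of introns, rose by 0.79. Whether these lists differed from the biogenesis factors was not tested.

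Several secreted inflammatory mediators rose as well. Of 10 measured cytokines and colony-stimulating factors 6 rose and 1 fell, with a median of 1.61 (7 and 0, median 1.75, without replicate 1). Of 12 measured chemokines 5 rose and 2 fell, with a median of 0.38 (5 and 1, median 0.56, without replicate 1). Many such genes are driven by the factor NF-kB. The promoter of Cxcl1, a chemokine that attracts neutrophils, is shown because it holds 2 matches to the searched NF-kB letters, GGG, 2 bases of any kind and TTTCC, on opposite strands and in capitals (RefSeq GRCm38.p6, chr5:90890995-90891294, plus strand, 250 bases before to 50 after the start).
Cxcl1: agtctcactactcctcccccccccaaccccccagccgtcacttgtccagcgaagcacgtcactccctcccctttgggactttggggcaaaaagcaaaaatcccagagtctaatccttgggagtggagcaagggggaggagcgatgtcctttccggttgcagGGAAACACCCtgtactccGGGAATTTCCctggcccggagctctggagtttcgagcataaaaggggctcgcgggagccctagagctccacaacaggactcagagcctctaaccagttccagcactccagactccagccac
Of the 11 chemokines and cytokines that rose, 8 had a promoter and 4 of them (50%) held the letters, Csf1, Cxcl1, Cxcl2 and Il6, against 1.9% of tested genes and 1.63% of all promoters. Members that did not rise were not counted apart here either, so whether the letters went with the rise was not tested.

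Cxcl1 rose from 12.54, 12.65 and 12.35 to 14.02, 13.76 and 14.02, near the top of the array's range, with no overlap and a change of 1.42 ± 0.14 (SE) or 2.67-fold (adjusted p = 1.02e-06). Cxcl5, a chemokine of the same receptor, was close to or below the filter level at 2 h, at 3.92, 3.54 and 5.25, and stood at 8.96, 8.28 and 8.93 at 4 h. It rose 22.4-fold, a value that is imprecise because its 2 h samples were dim. Ccl2 and Ccl7, which attract monocytes, rose 6.75-fold and 4.93-fold, Ccl2 from 8.96, 8.24 and 8.15 to 11.08, 10.88 and 11.66, and Cxcl2 rose 3.88-fold. Cxcl10, an interferon-induced chemokine, moved the other way, from 10.25, 9.84 and 10.44 to 8.22, 8.77 and 8.12, without overlap, and fell by 1.81 ± 0.32 (SE). Cxcl12, a homing chemokine, fell by 0.36 ± 0.14 (SE) and did not pass without replicate 1 (-0.22).

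Il6, the acute-phase cytokine, was already high at 2 h, at 13.12, 12.93 and 12.48, and rose 2.25-fold to 14.06, 13.86 and 14.11 (adjusted p = 1.98e-05). All samples of 4 h exceeded those of 2 h. Lif and Il11, cytokines of the same receptor family, rose 9.86-fold and 6.25-fold, Lif from 7.49, 7.15 and 6.35 to 10.49, 10.01 and 10.40. Csf1, the macrophage growth factor, had the tightest values of the list, 8.94, 8.94 and 8.88 and then 11.31, 11.24 and 11.22, and rose 5.06-fold (adjusted p = 5.89e-10). Csf2, the granulocyte-macrophage factor, was below 4 in every 2 h sample and rose at least 7.94-fold. The alarmin Il33 rose 4.13-fold. Tnf was near the filter level, at 4.53, 4.97 and 3.89 and then 3.60, 3.67 and 4.23. Its groups overlapped, and its fall of 0.64 (adjusted p = 0.0329) was not called without replicate 1 (-0.60).

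Feedback genes of the same pathways were mixed. Of 9 NF-kB components and inhibitors, 1 rose, the inhibitor Tnip1 (1.02), and 1 fell, the subunit Nfkb2 (-0.97, with 0.13 on a second probe set), while Nfkbia, the inhibitor IkB-alpha, stood at -0.19 without passing. Of 13 JAK-STAT feedback and acute-phase genes 3 rose and 4 fell (median -0.056, or 5 up and 4 down with a median of 0.065 without replicate 1). Over all genes 14.7% were higher and 25.9% lower, to be read beside each list of this paragraph. The suppressors Socs3 and Cish fell by 0.51 and 0.98, as did the kinases Pim1 and Pim3, by 0.51 and 1.02, the latter with -0.17 and 0.03 on further probe sets. Osmr, the oncostatin M receptor chain, rose 1.88-fold, the interleukin-4 receptor chain Il4ra 1.83-fold and the acute-phase factor Cebpb 1.28-fold. The NF-kB list had a median of -0.099, or 1 up and 1 down with a median of 0.04 without replicate 1, so both list medians changed sign. Of 10 leukocyte adhesion molecules 1 rose, Cd44 (3.13-fold), and 3 fell, the endothelial Icam2 (-1.11), Pecam1 (-1.68) and Jam3 (-0.71). That list had a median of 0.039, or 1 up and 2 down with a median of 0.12 without replicate 1. Jam3 did not pass without replicate 1, and Vcam1 and Sele, adhesion molecules of inflamed endothelium, stood at 0.20 and 0.26 and did not pass. Of 12 interferon-induced genes 0 rose and 3 fell, beside 25.9% lower over all genes (median -0.21, or 1 up and 2 down with a median of -0.068 without replicate 1). Among the fallers was Irf1, an interferon regulatory factor, falling 4.06-fold from 10.96, 10.85 and 10.91 to 8.76, 8.97 and 8.93. Its groups did not overlap. Ifit1 fell by 1.85, and Ifit2 by 0.91, without passing when replicate 1 was left out.

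Oxidative and protein stress genes showed smaller lists of changes. Of 15 targets of the antioxidant factor NRF2 7 rose and 2 fell, with a median of 0.43 (7 and 1, median 0.27, without replicate 1). Hmox1, which breaks down heme, rose from 9.12, 7.99 and 8.95 to 11.19, 11.28 and 10.84, without overlap, by 2.42 ± 0.25 (SE) or 5.34-fold (adjusted p = 1.71e-06). Srxn1 (sulfiredoxin) and Txnrd1 (thioredoxin reductase) rose 2.57-fold and 1.82-fold, whereas Taldo1, of the pentose phosphate pathway, and Gstm1, a glutathione transferase, fell by 0.64 and 0.55 but not past the threshold without replicate 1, and Nqo1, a quinone reductase, stood at -0.45 without passing. Metallothioneins, the zinc-binding Mt1 and Mt2, rose 1.45-fold and 1.54-fold, and the zinc importer Slc39a14 rose 2.82-fold, which made 3 of 5 in that list (median 0.54, or 3 up and 0 down with a median of 0.77 without replicate 1). Heat shock genes went both ways, 3 up and 4 down of 15 (median -0.055, or 3 up and 3 down with a median of -0.085 without replicate 1). Over all genes 14.7% were higher and 25.9% lower, so these counts do not set the list apart. The inducible Hsp70 gene Hspa1a and its co-chaperones Dnajb1 and Dnajb4 fell by 1.03, 1.07 and 1.33, as did Dnaja1, by 0.51, which did not pass without replicate 1. Chordc1, an Hsp90 co-chaperone, Cryab, a small heat shock protein, and Hspd1, the mitochondrial chaperonin, rose by 0.93, 1.37 and 0.64, and Cryab by 0.67 without replicate 1. Hspa1a and Hspa1b are near-identical copies whose signals the probes may not separate. Of 21 genes of the unfolded protein response 5 rose and 1 fell (median 0.18, or 8 up and 1 down with a median of 0.29 without replicate 1). Xbp1, a main factor of that response, rose by 0.62, the secreted factors Manf and Creld2 rose by 0.72 and 0.90, the chaperone Hspa5 (BiP) and the degradation factor Herpud1 by 0.38 and 0.67, and Ppp1r15a, the phosphatase subunit that ends the stress block on translation, fell by 0.68 ± 0.14 (SE).

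Immediate early genes fell. Of 10 AP-1 transcription factors 6 fell and 1 rose, with a median of -1.10 (6 and 1, median -1.01, without replicate 1). Of 20 other immediate early genes 12 fell and 1 rose, with a median of -0.69 (11 and 1, median -0.72, without replicate 1). Several of these genes are known to be driven by serum response factor, which binds the CArG box. The promoter of Zfp36, which encodes the mRNA decay factor tristetraprolin, is shown with its CArG box in capitals (RefSeq GRCm38.p6, chr7:28379179-28379478, minus strand, 250 bases before to 50 after the start).
Zfp36: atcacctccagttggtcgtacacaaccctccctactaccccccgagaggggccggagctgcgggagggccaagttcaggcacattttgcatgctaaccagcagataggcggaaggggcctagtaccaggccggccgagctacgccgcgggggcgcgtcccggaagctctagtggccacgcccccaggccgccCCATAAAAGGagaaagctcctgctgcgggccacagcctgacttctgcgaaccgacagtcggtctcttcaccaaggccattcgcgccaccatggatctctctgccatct
Of the 18 AP-1 and other immediate early genes that fell, 15 had a promoter, and 3 (20.0%) held a CArG box, Egr2, Srf (not past the threshold without replicate 1) and Zfp36, against 1.87% of tested genes and 1.63% of all promoters. The cAMP response element TGACGTCA was in 1 of the 15 (6.67%), Btg2, against 3.59% of tested genes and 1.79% of all promoters. The window covers only the bases next to the start. Fallers were not set against members that did not fall, so whether either element went with the fall was not tested.

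Fos read 14.40, 14.90 and 14.72 at 2 h, near the top of the array's range, and 12.48, 12.41 and 11.86 at 4 h. The groups did not overlap, and Fos fell by 2.42 ± 0.18 (SE), 5.36-fold (adjusted p = 3.91e-08). Fosb went from 11.71, 12.12 and 11.87 to 9.37, 9.49 and 8.54, a fall of 2.77, and Jun from 12.65, 12.25 and 12.25 to 10.37, 10.23 and 10.06, a fall of 2.17. Both were without overlap. Atf3, a stress-induced repressor of the same family, had the smallest p of its list (11.85, 11.89 and 11.78 and 9.46, 9.56 and 9.38, adjusted p = 5.1e-10) and fell 5.19-fold. Junb and Jund fell by 1.43 and 0.76. Against these, Fosl1, another member of the Fos family, rose from 8.60, 8.45 and 7.82 to 9.87, 10.19 and 9.56, by 1.58 ± 0.20 (SE) and without overlap. The other 3 members did not pass.

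Egr1, the prototype zinc finger immediate early gene, read 14.05, 14.13 and 14.13 at 2 h and 13.06, 12.80 and 12.63 at 4 h, and fell 2.42-fold. Its family member Egr2 fell 4.2-fold. Nr4a1 and Nr4a2, orphan nuclear receptors, fell 4.73-fold and 4.88-fold, Nr4a1 from 11.35, 12.02 and 11.81 to 9.42, 9.74 and 9.29. Ccn1, a matricellular protein induced by stretch and serum, had the smallest p of its list, with 12.76, 12.75 and 12.50 at 2 h and 10.07, 10.17 and 10.25 at 4 h, and fell by 2.51 ± 0.14 (SE). The growth inhibitor Btg2 fell 3.51-fold and Zfp36 fell 3.18-fold. Ier3, a survival gene, was the member of that list that rose, by 0.55. Myc, a growth-promoting transcription factor of the same early class, stood at 9.75, 9.29 and 9.26 and then 9.63, 9.74 and 9.16. Its groups overlapped, and its change of 0.079 ± 0.17 (SE) did not pass (adjusted p = 0.756).

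**Figure D3:**
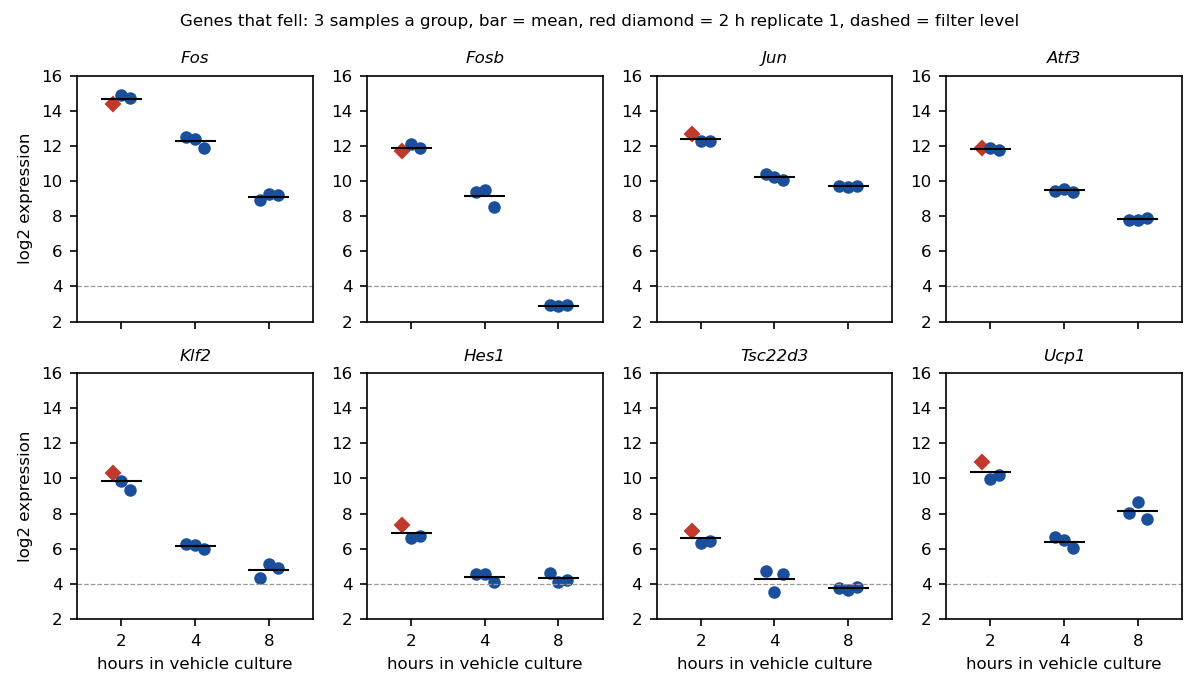
Log2 expression (vertical axis) of 8 genes in each vehicle sample at 2, 4 and 8 h (horizontal axis), 3 samples a time, with bars at the means, the red diamond for 2 h replicate 1 and the dashed line at the filter level of 4. In every panel the 3 samples of 4 h lie below the 3 of 2 h. Fos and Fosb go on downward to 8 h, and Ucp1 is higher at 8 h than at 4 h.

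Regulators linked to the same early signals moved with them in part. Of 9 MAP kinase feedback genes 4 fell and 3 rose (median -0.29, or 3 up and 4 down with a median of 0.0072 without replicate 1). The phosphatase genes Dusp1, Dusp6 and Dusp16 fell by 0.99, 1.03 and 1.16, and the inhibitors Errfi1, of the EGF receptor, and Spred1, of Ras signalling, rose by 0.94 and 1.25. Of the Sprouty inhibitors Spry1 fell, to below 4 in every 4 h sample, and Spry2 rose by 0.39. Of 10 Kruppel-like factors 6 fell and 0 rose, with a median of -0.95, or 0 up and 6 down with a median of -0.79 without replicate 1. Klf2, which shear stress maintains in endothelium, read 10.32, 9.85 and 9.34 at 2 h and 6.28, 6.23 and 6.00 at 4 h. The groups were far apart, and Klf2 fell by 3.67 ± 0.34 (SE), 12.7-fold (adjusted p = 5.12e-07). Klf4, a related factor of endothelium and smooth muscle, fell 1.8-fold, from 12.64, 12.61 and 12.30 to 11.79, 11.82 and 11.41, and Klf7 and Klf10 fell 2.76-fold and 2.52-fold. Klf5, which acts in smooth muscle growth, and Klf15, a glucocorticoid target, fell 2.3-fold and 2.09-fold. The other 4 did not pass. Txnip, an inhibitor of thioredoxin that responds to glucose, fell by 0.93 ± 0.14 (SE).

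Of 10 Notch pathway genes 4 fell and 1 rose (median -0.37, or 2 up and 3 down with a median of -0.33 without replicate 1). The target repressors Hes1, Heyl and Hey2 fell by 2.50, 1.19 and 1.02, the ligand gene Dll1 fell by 0.51 (not past the threshold without replicate 1), the DNA-binding partner Rbpj rose by 0.83, and the receptors Notch1, Notch2 and Notch3 stood at -0.32, 0.24 and -0.42 without passing. Hes1 read 7.34, 6.63 and 6.74 at 2 h and 4.55, 4.56 and 4.10 at 4 h, with no overlap. Of 13 p53 targets and growth arrest genes 2 rose and 4 fell, or 5 and 3 without replicate 1, and the median changed sign, from -0.21 to 0.022. The shares over all genes were 14.7% higher and 25.9% lower with all samples. Gadd45b and Sesn1 fell by 1.44 and 1.51, Phlda3 and Ccng1 by 0.62 and 0.43 (neither past the threshold without replicate 1, at -0.34 and -0.37), Gadd45a rose by 0.41 beside Sesn2 above, and Cdkn1a, the cell cycle inhibitor p21, stood at 0.23 without passing, or 0.38, a rise, without replicate 1. Of 12 cell cycle genes 5 fell and 0 rose (median -0.46, or 0 up and 3 down with a median of -0.22 without replicate 1). The kinase Cdk2 and the cyclin Ccne1 of the step into DNA synthesis fell by 0.73 and 0.49, not past the threshold without replicate 1. The inhibitors Cdkn2c and Cdkn1b and the cyclin Ccnd3 fell by 1.44, 0.47 and 0.75.

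Of 22 measured corticosteroid-responsive genes 12 fell without added hormone and 5 rose, with a median of -0.56 (11 and 6, median -0.29, without replicate 1). Tsc22d3, the glucocorticoid-induced leucine zipper, read 7.03, 6.35 and 6.47 at 2 h and 4.75, 3.52 and 4.55 at 4 h. The groups did not overlap, and Tsc22d3 fell by 2.35 ± 0.26 (SE) (adjusted p = 4.37e-06). Sgk1, a kinase that promotes sodium transport, fell 2.63-fold, from 12.64, 12.72 and 12.60 to 11.39, 11.50 and 10.89, also without overlap. Zbtb16, a zinc finger transcription factor, fell 1.71-fold. Fkbp5, a co-chaperone of the glucocorticoid receptor, read 7.51, 5.88 and 6.73 and then 5.89, 6.16 and 5.92. Its groups overlapped, and its fall of 0.72 (adjusted p = 0.0391) rested on replicate 1, since without it the change was -0.32 and did not pass. Members that rose, such as Ddit4, Errfi1 and the metallothioneins, also belong to other lists above, and Angptl4, a lipase inhibitor, rose by 0.98. Fallers were shared with other lists as well, such as Dusp1 of the MAP kinase feedback genes. Pck1, described below with the fat genes, had the lowest change of the list (-2.91). Nr3c1, the glucocorticoid receptor itself, stood at -0.14 and did not pass (0.056 without replicate 1).

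Of 14 clock genes 7 fell and 3 rose, with a median of -0.70 (7 and 3, median -0.64, without replicate 1). Arntl, which encodes the activator BMAL1, rose from 7.63, 6.72 and 6.95 to at least 8.57 in every sample of 4 h, 3.34-fold, without overlap. Dbp, an output factor of the clock, read 7.87, 9.54 and 9.17 and then 6.22, 5.55 and 4.59, and fell by 3.41 ± 0.52 (SE). Its samples were spread within each time, yet the groups did not overlap. The repressor Per1 went from 8.55, 7.51 and 7.71 to 6.20, 6.27 and 5.38, a fall of 1.97, the repressor Cry2 fell by 0.93, and Cry1 and the repressor Bhlhe40 rose by 0.93 and 0.42. Nr1d1 and Nr1d2, the REV-ERB repressors of Arntl, fell by 1.46 and 1.35.

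The same step of culture in the presence of 100 nM aldosterone used none of the vehicle samples, although the estimate of spread was shared. From aldosterone 2 h to 4 h, 2616 of 6803 genes passed (38.5%), 1183 higher (17.4%) and 1433 lower (21.1%). Of the vehicle's 998 risers 817 (81.9%) also rose with aldosterone, which was 69.1% of its risers, and of the 1761 fallers 1149 (65.2%) also fell, 80.2% of its fallers. With all samples, 0 genes rose in vehicle and fell with aldosterone, and 3 fell in vehicle and rose with aldosterone. These 3 were Zbtb16, Fkbp5 and Pelp1, a coregulator of nuclear receptors (-0.52 and 0.64). Fkbp5 and Pelp1 did not pass in vehicle without replicate 1. In the fits without vehicle 2 h replicate 1, 1128 risers were shared, 81% of those in vehicle and 76.8% of those with aldosterone. The shared fallers were then 1129, 82.3% of those in vehicle and 62.2% of those with aldosterone. There, 1 gene rose in vehicle and fell with aldosterone, and 1 did the reverse. By list, the aldosterone medians were 1.10 for ATF4 targets, 1.89 for serine synthesis, 1.30 for hypoxia and glycolysis, 1.10 for ribosome biogenesis, 1.27 for cytokines, -0.95 for AP-1 factors, -0.59 for Kruppel-like factors and -0.76 for respiratory chain subunits, each in the same direction as in vehicle. Corticosteroid-responsive genes had a median of -0.22 with aldosterone, with 8 rising and 8 falling, beside -0.56 in vehicle (-0.29 without replicate 1), and the difference between these medians was not tested.

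The difference of the 2 changes, aldosterone minus vehicle, passed for 2 of 6803 genes (0.0294%), with 363 at an unadjusted p under 0.05. Zbtb16 read 8.52, 8.53 and 8.91 and then 7.59, 7.72 and 8.34 in vehicle, and 8.77, 8.65 and 8.48 and then 9.74, 9.55 and 9.73 with aldosterone. It fell in vehicle and rose by 1.04 with the hormone, a difference of 1.82 ± 0.26 (SE, adjusted p = 0.00983). Chac1 had fitted changes of 5.78 in vehicle and 4.16 with aldosterone, a difference of -1.62 ± 0.21 (SE, adjusted p = 0.00379). With aldosterone its 2 h samples already read 4.56, 4.33 and 3.98, while those of vehicle lay below the filter level, so the tested difference rests on values under it. With values under 4 set to 4 the changes were 4.68 and 4.15 and the difference was -0.53. The next smallest p-values were those of Prkra, an activator of the kinase PKR (1.10, adjusted p = 0.194), Fam110c (1.25, adjusted p = 0.2) and the cation channel gene Trpv2 (1.28, adjusted p = 0.2), which did not pass. Prkra and Fam110c lay below 4 in every vehicle sample of 4 h. For Fkbp5, which rose by 1.01 with aldosterone, the difference was 1.73 (adjusted p = 0.316), and for Tsc22d3 1.41 (adjusted p = 0.477), so neither was shown to differ.

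**Figure D4:**
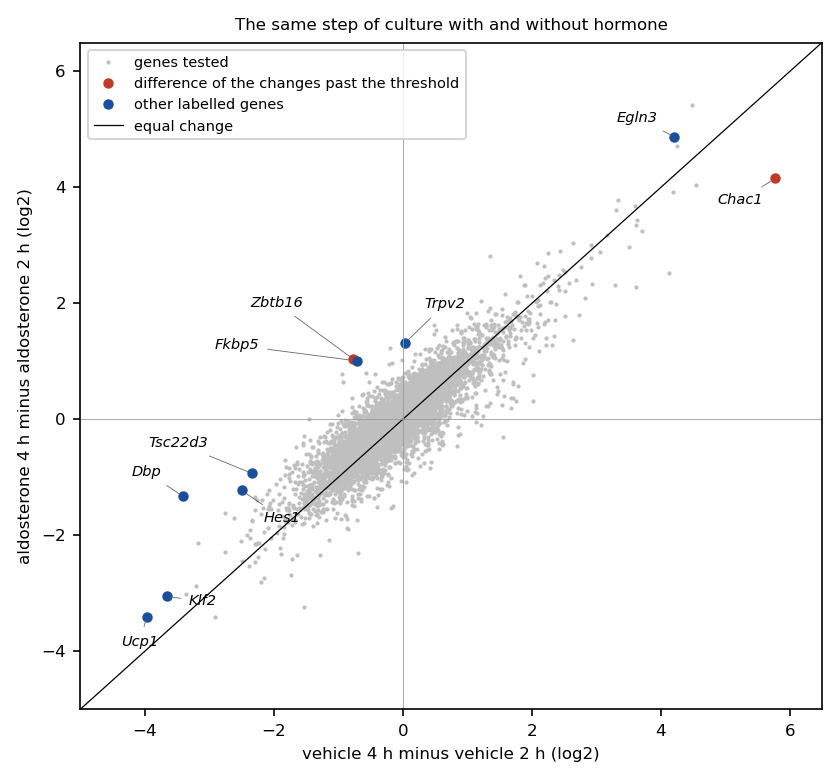
Change from 2 to 4 h of each tested gene (grey points, log2) in vehicle (horizontal axis) and with aldosterone (vertical axis), with the line of equal change. Chac1 and Zbtb16, in red, are the 2 genes whose changes differed past the threshold, Zbtb16 at -0.77 and 1.04 and Chac1 at fitted values of 5.78 and 4.16. The vehicle samples of Chac1 at 2 h lay below the filter level, and with values under 4 set to 4 its changes were 4.68 and 4.15. The other 8 named genes, in blue, did not pass that test.

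Vascular signalling genes changed in both directions, as did the genes at large, of which 14.7% were higher and 25.9% lower. The counts of these small lists are to be read beside those shares. Of 11 genes of endothelin, nitric oxide and natriuretic signalling 2 rose and 5 fell (median -0.42, or 2 up and 6 down with a median of -0.70 without replicate 1). The vasoconstrictor Edn1 (endothelin-1) went from 8.58, 8.02 and 7.74 to 6.52, 6.78 and 6.82, without overlap, and fell by 1.41 ± 0.26 (SE). Its converting enzyme Ece1 rose by 0.64, the vasodilator Adm (adrenomedullin), also a hypoxia-induced gene, rose 2.32-fold, and Gucy1a1, a subunit of the nitric oxide receptor, fell 2.78-fold. The other fallers were Npr3, which clears natriuretic peptides (-1.34, or -0.70 without replicate 1), and Ramp1 and Ramp2, accessory proteins of the adrenomedullin and CGRP receptor (-1.12 and -1.09). Of 7 RGS genes, which shorten G protein signals, 3 fell and 0 rose, Rgs2 by 1.18, Rgs3 by 0.52 and Rgs5, a pericyte and smooth muscle gene, by 0.48, the last not past the threshold without replicate 1. The list had a median of -0.34, or 1 up and 2 down with a median of -0.34 without replicate 1. Of 7 prostaglandin genes 2 rose, the inducible cyclooxygenase Ptgs2 (0.88) and the prostacyclin receptor Ptgir (0.90), and 3 fell, the phospholipase Pla2g4a (-1.17) and the prostaglandin E receptors Ptger4 (-0.78) and Ptger3 (-0.97). Ptger3 did not pass without replicate 1 (-0.70), and the list had a median of -0.37, or 2 up and 2 down with a median of -0.26 without replicate 1.

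Of 19 growth factors and receptors of the VEGF, FGF, EGF and PDGF families 7 rose and 4 fell (median 0.12, or 7 up and 3 down with a median of 0.20 without replicate 1). Beside this list and the next, 14.7% of all genes were higher and 25.9% lower. Besides Vegfa, the EGF receptor ligand Hbegf, the receptor Fgfr1 and the ligand Pdgfa rose 2.06-fold, 1.95-fold and 1.66-fold, and Pgf, placental growth factor, rose 2.55-fold. The ligand Fgf1 fell 2.85-fold and the receptor Pdgfra 2.06-fold, although a second, dimmer Pdgfra probe set gave 0.07. Of 20 TGF-beta family genes 4 rose and 9 fell (median -0.41, or 4 up and 9 down with a median of -0.16 without replicate 1). Inhba and Inhbb, subunits of the activin ligands, rose 3.76-fold and 2.26-fold and the signal transducer Smad3 and the repressor Tgif1 1.74-fold and 2.08-fold, while the decoy receptor Bambi fell 3.77-fold and the BMP target Id2 2.09-fold.

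In the matrix, 6 of 17 collagen genes fell, beside 25.9% of all genes, and 0 rose (median -0.24, or 0 up and 5 down with a median of -0.20 without replicate 1). Col14a1, Col1a1 and Col1a2 fell by 0.98, 0.51 and 0.47. Of 22 elastic fibre and pericellular genes 4 rose and 2 fell (median -0.082, or 3 up and 3 down with a median of -0.06 without replicate 1). Those that rose were Has1 and Has2, which make hyaluronan, by 0.71 and 0.66, Thbs1 (thrombospondin 1), by 0.76, and Tnfaip6, a hyaluronan-binding protein, by 0.74 (not past the threshold without replicate 1, at 0.41), while the proteoglycan Vcan and the elastic fibre protein Fbln5 fell by 0.83 and 0.62. Metalloproteinases and inhibitors split, 4 up and 6 down of 15 (median -0.18, or 5 up and 6 down with a median of -0.11 without replicate 1). Timp1, the inducible inhibitor, rose 4.99-fold from 5.29, 5.63 and 5.52 to 7.69, 7.60 and 8.11, and the protease Mmp3 and the urokinase receptor Plaur rose 3.05-fold and 2.44-fold. Timp4 fell 3.24-fold and the sheddase Adam17 1.93-fold. Adam19, a membrane protease, rose by 3.51, but by 0.67 on its second, dimmer probe set. Of 16 cholesterol synthesis and LDL receptor genes 2 rose and 5 fell (median -0.17, or 3 up and 2 down with a median of -0.019 without replicate 1), the risers being the sterol enzymes Sqle (2.82-fold) and Msmo1 (1.96-fold). Beside these counts, 14.7% of all genes were higher and 25.9% lower. Srebf2, the main factor of this pathway, stood at -0.68, a fall, with 0.092 on its second probe set, and the fatty acid enzymes Scd1 and Fasn fell by 0.76 and 0.97, Fasn not past the threshold without replicate 1.

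Nuclear-encoded subunits of the mitochondrial respiratory chain fell, with fallers in each of complexes I to V. Of 40 measured, 35 fell and 0 rose, with a median of -0.69, and without replicate 1 29 fell and 0 rose, with a median of -0.48. After centring each sample on its median the list median was -0.58. The mean log2 level of the 40 subunits was 10.43, 9.70 and 9.91 at 2 h and 9.25, 9.38 and 9.40 at 4 h. Every sample of 2 h lay above every sample of 4 h in this mean. Ndufb3, of complex I, had the smallest p of the list, with 10.48, 9.68 and 9.97 at 2 h and 8.82, 8.94 and 8.90 at 4 h, and fell by 1.16 ± 0.16 (SE), or by 0.94 without replicate 1. Sdhc, which anchors complex II in the membrane, fell by 1.15 ± 0.19 (SE), and the complex I subunits Ndufa8, Ndufa5 and Ndufv2 fell by 1.06, 0.74 and 0.77. Brown fat is rich in mitochondria, and markers of fat cells fell at the same step. Of 8 measured white and brown adipocyte markers 7 fell and 0 rose (median -1.21, 5 fell and median -0.86 without replicate 1), and the log2 of their summed level was 14.26 to 14.91 at 2 h and 13.51 to 13.85 at 4 h. The part of fat cells in the fall of the respiratory chain genes was not tested.

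Ucp1, the uncoupling protein of brown fat, read 10.91, 9.97 and 10.21 at 2 h and 6.68, 6.47 and 6.02 at 4 h. It had the largest fall of the tested genes with a level above 4 on both sides, 3.97 ± 0.48 (SE), 15.7-fold (adjusted p = 1.06e-05), with no overlap. Cidea, a lipid droplet protein of brown fat, fell 4.12-fold, whereas Fabp4, a fatty acid carrier of all adipocytes, fell 1.68-fold and Adipoq (adiponectin) 2.03-fold. The fat and liver enzyme Pck1, which makes phosphoenolpyruvate, fell 7.52-fold, and Acaa2, a mitochondrial enzyme of fatty acid oxidation, 5.62-fold. Lep, the leptin gene, was below 4 in all 6 samples.

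Of 12 smooth muscle markers, all above 4 in every sample, 5 fell and 0 rose (median -0.42, 4 fell and median -0.35 without replicate 1). Mylk, the myosin light chain kinase, Myocd, the smooth muscle coactivator myocardin, and Cnn1 (calponin) fell by 0.64, 0.72 and 0.51. Actg2 and Myl9, also of the contractile apparatus, fell by 0.58 and 0.60, not past the threshold without replicate 1, and Acta2 and Myh11, its defining genes, stood at 0.12 and 0.046 without passing, or -0.19 and -0.38 without replicate 1, where Myh11 passed. The log2 of the summed level of this list was 16.08 to 16.38 at 2 h and 15.99 to 16.12 at 4 h, and the ranges overlapped, whereas its mean log2 level, 10.72 to 10.87 and then 10.35 to 10.56, did not overlap. Of 10 endothelial markers 5 fell and 1 rose (median -0.61, or 1 up and 5 down with a median of -0.53 without replicate 1), with the angiopoietin receptor Tek falling from 8.91, 8.35 and 8.19 to 6.83, 6.73 and 6.49, without overlap, 3.48-fold. Pecam1, the endothelial junction protein CD31, fell 3.19-fold and Vwf, von Willebrand factor, 1.97-fold, the VEGF receptor Kdr 2.18-fold and the junction protein Esam 1.73-fold, while Cldn5, a tight junction protein, rose 1.45-fold. The summed endothelial level was 10.85 to 11.73 at 2 h and 10.45 to 10.70 at 4 h. Of 10 macrophage markers 6 fell and 0 rose (median -1.01, or 1 up and 5 down with a median of -0.72 without replicate 1), among them the complement gene C1qa (-2.28) and the coagulation factor gene F13a1 (-1.13). Their summed level was 11.34 to 12.03 at 2 h and 11.01 to 11.53 at 4 h, and the ranges overlapped, whereas their mean log2 level, 6.65 to 7.41 and then 6.02 to 6.48, did not. Of 9 fibroblast markers 3 fell, beside 25.9% of all genes, and 0 rose (median -0.47, or 0 up and 3 down with a median of -0.28 without replicate 1). The fallers were Pdgfra and the collagens Col1a1 and Col1a2, which are also counted in the lists above. The mean log2 level of the fibroblast markers was 11.18 to 11.63 at 2 h and 10.82 to 11.10 at 4 h.

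Markers of skeletal muscle, lymphocytes and neutrophils were mostly low, unlike those of fat cells given above. Of 4 Schwann cell and nerve markers on the array 2 were at or below 4 in all 6 samples, and 1 was above 4 in all 6. The 6 skeletal muscle markers on the array were below 4 in all 6 samples, as were 5 of 6 lymphocyte, 4 of 6 neutrophil and 3 of 6 cardiac muscle markers. Of the red blood cell markers Hba-a1 was below 4 throughout, and Slc4a1, an anion exchanger, fell by 1.55 ± 0.36 (SE). The 3' to 5' signal of the control probe sets, a measure of RNA integrity, differed between the times by -0.0092 for Gapdh and 0.027 for beta-actin on the log2 scale (exact permutation test, 2-sided p = 1 and 0.8, where 0.1 is the smallest p that 3 against 3 allow). For beta-actin, vehicle 2 h replicate 1 read 1.63, below the 1.89 to 2.13 of the other vehicle samples of 2 and 4 h. Its Gapdh value, 0.63, lay within their 0.49 to 0.79.

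**Figure D5:**
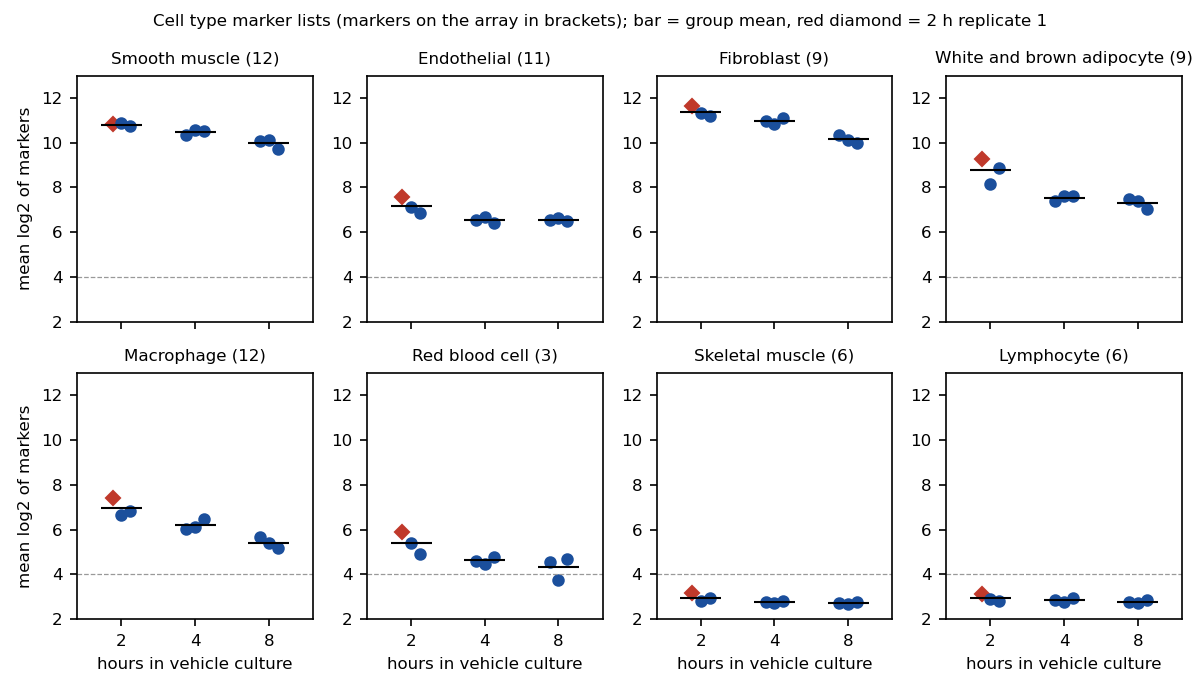
Mean log2 level (vertical axis) of the markers on the array for 8 cell types (number in brackets) in each vehicle sample at 2, 4 and 8 h (horizontal axis), with bars at the group means, the red diamond for 2 h replicate 1 and the dashed line at the filter level of 4. Replicate 1 is the highest 2 h sample in the panels other than that of smooth muscle. Skeletal muscle and lymphocyte markers lie below 4 throughout, and in the other 6 panels every sample of 4 h lies below every sample of 2 h.

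Among the largest changes outside these lists, Cyp1a1, the cytochrome P450 that is the main target of the aryl hydrocarbon receptor, rose 9-fold, from 5.84, 4.95 and 5.50 to 8.34, 8.97 and 8.49, without overlap. Baiap2l1, an actin and membrane scaffold, rose by 3.61, with 1.42 on its second probe set. Genes below 4 in every 2 h sample have only a lower bound, and besides Chac1 and Csf2 these were led by the long noncoding RNA Pvt1 (at least 8.78-fold), Csf2rb2, a receptor chain for interleukin-3 (at least 6.11-fold), and Edn2, endothelin-2 (at least 2.72-fold). The long noncoding RNA Rian fell 10.3-fold, from 7.53, 7.85 and 7.14 to 3.99, 4.61 and 3.82, with -1.70 and 0.37 on 2 further probe sets. Tcap, a titin-binding protein of striated muscle, fell 9.07-fold, and Npy1r, the neuropeptide Y receptor on vascular smooth muscle, 5.09-fold. Etfbkmt, a mitochondrial methyltransferase, and 4931406C07Rik, named by its clone, fell 5.19-fold and 6.17-fold. Genes below 4 in every 4 h sample were led by Rasd1, a dexamethasone-induced Ras protein (at least 6.41-fold lower), Polg2, a subunit of the mitochondrial DNA polymerase (at least 5.49-fold), Lrrk1, a kinase (at least 3.05-fold), Aspa, which splits acetylaspartate (at least 2.38-fold), and Plbd1 (at least 2.23-fold).

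The step from 4 to 8 h in vehicle shares its 4 h samples with the change described here, so its values stand beside it as a description. From 4 to 8 h, 2570 of 6803 genes passed (37.8%), 1368 higher (20.1%) and 1202 lower (17.7%). List medians for that step were 1.72 for serine synthesis enzymes, 1.14 for ATF4 targets, 1.21 for tRNA synthetases and 1.09 for hypoxia and glycolysis genes, beside 2.13, 1.37, 1.11 and 1.20 from 2 to 4 h. They were 0.30 for ribosome biogenesis factors, 0.051 for cytokines and 0.22 for respiratory chain subunits, beside 1.19, 1.61 and -0.69. Chac1 stood at 8.67, 8.68 and 8.70 at 8 h, the level of 4 h, while Fosb stood at 2.92, 2.87 and 2.92, below the filter level. Ucp1 read 8.06, 8.67 and 7.67 at 8 h, between its levels of 2 and 4 h.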

How the data were processed

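Aortic RNA of 18 pools was hybridised to Affymetrix arrays with a single label. The deposited log2 values per probe set were made by the authors with GCRMA, per the submitters' processing notes, with version and settings not given in the sources used here. GCRMA corrects background by probe sequence, normalizes by quantiles and summarises the probes of a set. GCRMA draws dim probe sets to a common low level, so changes near a level of 4 are imprecise, and values near the top of the scale may be compressed. The 18 arrays are the only measure of precision, since arrays give no read depth.

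Samples were grouped by their titles. Gene names came from the platform annotation, updated through RefSeq. Of 22690 probe sets 64 were controls, 20380 named 1 gene (20351 matched to RefSeq), 691 several and 1555 none. Probe sets above 4 in at least 3 of the 6 vehicle samples of 2 and 4 h were kept, and the brightest stood for its gene, with 2557 of the 6803 genes having more than 1. A group mean over all 18 samples was fitted with limma 3.58.1 in R 4.3.3 (lmFit, eBayes with intensity trend, 12 residual degrees of freedom). Benjamini-Hochberg adjustment was over the 11682 probe sets past the filter, before 1 probe set was taken for each gene. The median SD within groups was 0.24. The code was tested on simulated data. Bounds set a group below 4 to 4. Python 3.11.15, pandas 2.3.3 and matplotlib 3.10.9 made the summaries and plots. Pools were labelled as biological replicates, and the labels do not say whether pools shared animals or days.

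Replicate numbers were checked for pairing. The deviations of same-numbered samples from their group means correlated at -0.088, -0.046 and 0.007, so no pairing was assumed. The alternatives were another prior, no filter or one at 6, only the samples compared, further quantile normalization, centring on the median, array weights, averaging the probe sets of a gene, the replicate number as a block, and each replicate left out.

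The comparison, the 37 pathway and 12 cell type lists and the genes always named were chosen with earlier results of these data known. The rule named the 15 largest rises and falls that passed, were at least 1 in size and did not overlap, 5 bounds each way, up to 5 members a pathway list and 3 a marker list by smallest p, 20 genes always and 5 for the hormone comparison. Other list members and Pelp1 were named after their values were seen, to complete a list or a pathway.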

Additional observations from a re-analysis of the deposited data

Results flagged for a closer look

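The change from 2 to 4 h differed between aldosterone and vehicle for 2 genes by limma's test of the difference itself. For Chac1, the glutathione-degrading enzyme, the change with aldosterone minus that with vehicle was -1.62 (adjusted p = 0.00379), although it rose in both. Its vehicle samples of 2 h lay below the filter level, and with values under 4 set to 4, an alternative chosen after seeing the data, the difference was -0.53. Over the alternatives the fitted difference was -1.77 to -1.49, with adjusted p from 0.00102 to 0.0935, and the call was lost with only the 12 samples compared. For Zbtb16, the zinc finger factor, the difference was 1.82 (adjusted p = 0.00983). It lay between 1.55 and 2.07 over the alternatives, with adjusted p from 0.000415 to 0.178, and the call was lost with only those 12 samples (adjusted p = 0.0935), with each sample centred on its median (adjusted p = 0.0517) and with the mean of its probe sets (adjusted p = 0.178). All 3 vehicle samples of Zbtb16 at 4 h lay below those of 2 h, and all 3 with aldosterone lay above. These are the values by which the gene was picked, so their separation adds no support to the test.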

How the results depend on the processing

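The number of genes that passed from 2 to 4 h in vehicle was 2759, and 2731 with the replicate block. It was 1224 with only the 6 samples compared, 485 higher and 739 lower, of which 484 and 738 were also called with all 18 samples. Leaving out 1 replicate gave 2119 to 2812 there, 1992 to 2222 of 2616 with aldosterone and 2054 to 2256 of 2570 from 4 to 8 h. The block gave 2587 with aldosterone, 2 for the hormone by time difference and 2523 from 4 to 8 h, and ended the call of 2 named genes. The hormone by time difference was called for 2 genes, for 4 without a filter, for 1 after centring or with the mean of probe sets, for 0 with only the 12 samples compared (limma, with 259 at an unadjusted p under 0.05), and for 2 to 4 when a replicate was left out, the 4 without vehicle 2 h replicate 2.

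Of 260 named genes that passed, 181 kept direction and call under every alternative in which they were tested, 166 of them under all 15 and 15 too dim for the filter at 6, and 79 lost the call under at least 1, most often (72) with only the 6 samples, and 19 to 32 when a replicate was left out. The call was lost most often for Rgs5 (13 of 15 alternatives) and Rps4x (11 of 15). It was lost under 9 for Ccne1, Cxcl12, Mxi1 and Tnf, and under 8 for Cebpb, Dll1, Dnaja1 and Pelp1. Fkbp5, Has2, Hspa5, Mt1, Ramp2 and Slc38a2 lost it under 7. Cxcl12 was the called gene that changed sign, to 0.25 with the mean of its probe sets. Among genes that did not pass, array weights gave -0.16 for Acta2, -0.37 for Myh11, 0.093 for Nr3c1 and -0.0075 for Shmt1, and the mean of probe sets gave -0.50 for Mthfd1 and -0.053 for Myh11. With 1 replicate left out Acta2 ranged from -0.19 to 0.27, Myh11 from -0.38 to 0.29, Nr3c1 from -0.25 to 0.056, Shmt1 from -0.10 to 0.26, Myc from -0.038 to 0.25 and Trpv2 from -0.15 to 0.17. The cause was not tested.

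Of 42 list medians 33 kept their sign under the 15 alternatives. The 9 that did not were those of MAP kinase feedback, NF-kB, JAK-STAT, leukocyte adhesion, p53, heat shock, growth factor, elastic fibre and ribosomal protein genes. Signal over background limits 27 genes with every 2 h sample at or under 4 and 47 with every 4 h sample there. The lists of ATF4 targets, tRNA synthetases, cytokines and metalloproteinases each hold 1 gene that passed the filter only through 4 h. The MAP kinase feedback and macrophage lists each hold 1 that passed only through 2 h. These genes are included in the counts of their lists.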
